A study of Mus musculus with 12 samples.

Results

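The transcripts described here are those of the mouse mitochondrial genome, taken as every gene of the deposited count file whose GENCODE symbol starts with mt-. The rule found 37 of 46078 genes, made up of 13 mRNA genes, 2 rRNA genes and 22 tRNA genes. The study sequenced RNA of 2 splenic B cell subsets, marginal zone (MZ) and follicular (FO), from C57BL/6 mice 8 to 12 weeks old, with 3 libraries in each of 4 groups. FO Control and MZ Control came from VAVcre mice, which the labels also give as WT. FO CKO and MZ CKO came from VAVcre-Zbtb24 mice, a conditional knockout (CKO) of the transcription factor gene Zbtb24 in which the Vav promoter drives Cre in blood cells of all lineages, so all 4 groups are labelled as carrying the Cre. Cells were separated by a magnetic isolation kit, and each of 6 animal numbers labels 1 FO library and 1 MZ library. The labels do not state outright that such a pair is from 1 mouse, which is taken here from the shared number.

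The mitochondrial genome is a small circle that is transcribed from both strands into long precursors. The tRNAs sit between most of the mRNAs and rRNAs, and their excision releases the other RNAs. The mRNAs encode core subunits of respiratory chain complexes I, III, IV and V, the rRNAs build the mitochondrial ribosome, and all remaining subunits and factors come from the nucleus. FO B cells recirculate and take part in T cell dependent responses, while MZ B cells stay in the spleen and respond quickly to blood-borne antigens.

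Each library held 36340116 to 44629250 gene counts, of which 342515 to 630825 were mitochondrial. Reads with no unique alignment made up 19.6% to 28.7% of all listed reads. The markers of B cells summed to 5771 to 7309 CPM (counts scaled to a common total of gene counts per library) in every library. The FO markers summed to 3578 to 4342 CPM in FO and 992 to 1346 CPM in MZ libraries, and the MZ markers to 1291 to 1834 CPM in FO and 5614 to 7275 CPM in MZ libraries, so the labelled subsets carried their markers. Zbtb24 was counted over the whole gene, at 61.8 to 63.6 CPM in FO Control, 48.3 to 49.9 CPM in FO CKO, 49.5 to 53.1 CPM in MZ Control and 40.9 to 44.3 CPM in MZ CKO libraries. The Zbtb24 groups did not overlap within either cell type, but neither genotype comparison passed (adjusted p = 0.194 in FO and 1 in MZ, edgeR quasi-likelihood test). Most of the Zbtb24 count stayed in the CKO libraries, and whether the counted reads cover a deleted part of the gene was not tested.

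Of the 37 genes, 17 held a count in at least 1 library, 20 were at 0 in all 12 libraries, and 11 held 10 or more counts in every library. Over all libraries the 37 genes held 5442208 counts. The rRNAs took 65.3% of them, the mRNAs 34.6% and the tRNAs 0.0303%. mt-Rnr2, the 16S rRNA of the large ribosomal subunit (ENSMUSG00000064339, chromosome M 1094 to 2675, plus strand), held 61.4%. mt-Rnr1, the 12S rRNA of the small subunit (ENSMUSG00000064337, M 70 to 1024, plus strand), held 3.95%. mt-Co1, the catalytic subunit of cytochrome c oxidase or complex IV (ENSMUSG00000064351, M 5328 to 6872, plus strand), held 29.99%. mt-Co1 made up 84.7% to 88.7% of the mRNA counts of a library. All mt- coordinates are from GENCODE M21 on GRCm38, and each gene there is a single exon with no intron. For a gene at 0 in all libraries, 0 of 479253943 gene counts allow a share of up to 6.26e-07%, and such limits cover counting error only.

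The mRNA genes fell into classes by how much of their sequence is present in another annotated transcript. Each gene was cut into all windows of 75 bases, and a window was called shared when its exact letters occur in a GENCODE transcript of another gene. mt-Co2, mt-Atp6, mt-Co3, mt-Nd3 and mt-Nd4l had 97.8% to 99.9% of their windows shared and held 0 to 26 counts per library. The 6 mRNAs with under 10% shared (mt-Nd1, mt-Nd2, mt-Atp8, mt-Nd5, mt-Nd6 and mt-Cytb) held 115 to 12472 counts per library. mt-Co1 had 39.8% and mt-Nd4 61.5% of windows shared, and they held 812 to 168498 counts per library. Per kb of gene, mt-Co2 averaged 9.75 counts and mt-Co1 88039 counts, although both encode complex IV subunits. The read length is not known here. With windows of 50 or 100 bases, the same 5 genes had 97.6% to 100% shared. Reads with no unique alignment are listed without a gene, so how many of them belong to these 5 genes cannot be told.

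**Figure D1:**
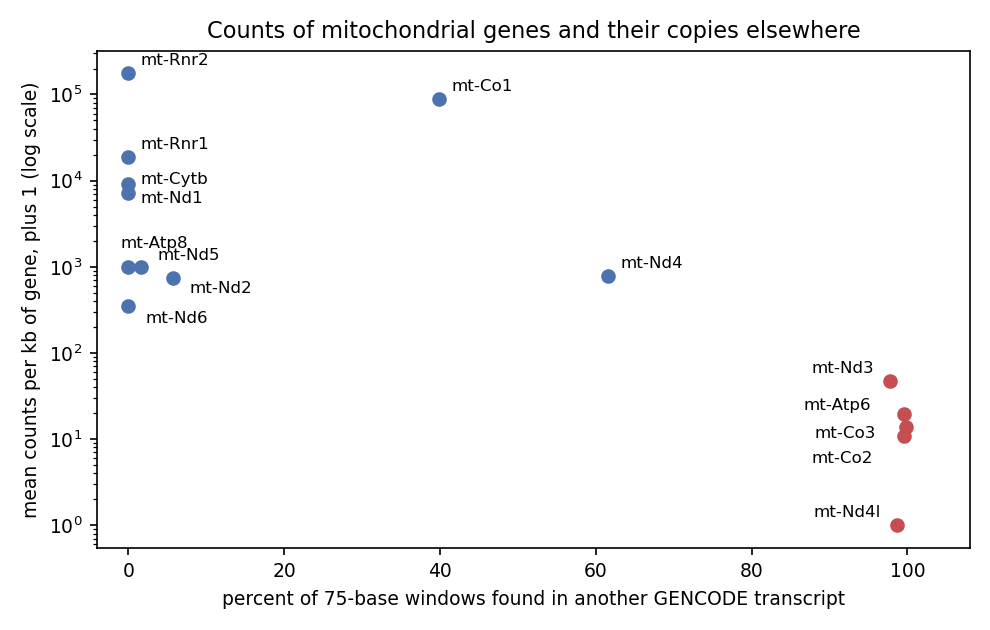
Mean counts per kb over the 12 libraries, plus 1 and on a log axis, against the percent of 75-base windows shared with another transcript, for the 13 mRNA and 2 rRNA genes. The 5 genes in red, each with over 90% of windows shared, lie below all the others.

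The copies lie side by side on chromosome 1, each annotated as an unprocessed pseudogene on the minus strand. Gm28661 covers 681 bases of mt-Co2, Gm10925 covers 678 bases of mt-Atp6, Gm28437 covers 783 bases of mt-Co3 and Gm10222 covers 294 bases of mt-Nd4l, all at 100% identity. Gm28439 matches the first 876 bases of mt-Nd4 at 100%, and Gm29216 matches bases 1054 to 1545 of mt-Co1 with 6 mismatches at its start. The copy of mt-Nd3, Gm28438 (GRCm38 chr1:24612775-24613119), differs from the mitochondrial gene (M 9459 to 9806, plus strand) by 1 base. The difference is T3C, counted from 1 at the first base of mt-Nd3, which is M position 9461. The first 60 bases of each are shown because this is the 1 base that differs within the annotated copy, which covers the first 345 of the 348 bases of mt-Nd3. The base that differs is in capitals.
mt-Nd3: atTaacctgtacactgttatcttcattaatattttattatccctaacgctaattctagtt
Gm28438: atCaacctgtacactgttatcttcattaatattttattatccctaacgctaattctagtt

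mt-Nd3, a complex I subunit, held 4 to 26 counts in every library. Gm28438 held 14, 24 and 27 counts in FO Control, 40, 15 and 36 in MZ Control, 1, 0 and 24 in FO CKO and 0, 0 and 26 in MZ CKO libraries. The libraries with 0 or 1 count were those of the animals numbered 1512 and 1514, in FO and in MZ alike, and the libraries of the other 4 animals held 14 to 40. Both of these animals are CKO, and the third CKO animal, 2002, held 24 and 26. Reads of the nuclear copy and reads of mitochondrial RNA with C at that base cannot be told apart in these counts. Gm29216 held 123 to 178 counts in 6 libraries and 1 to 5 in the other 6, and this split did not follow the animals: animal 1505 had 136 in FO and 5 in MZ, and animal 2002 had 1 in FO and 178 in MZ.

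**Figure D2:**
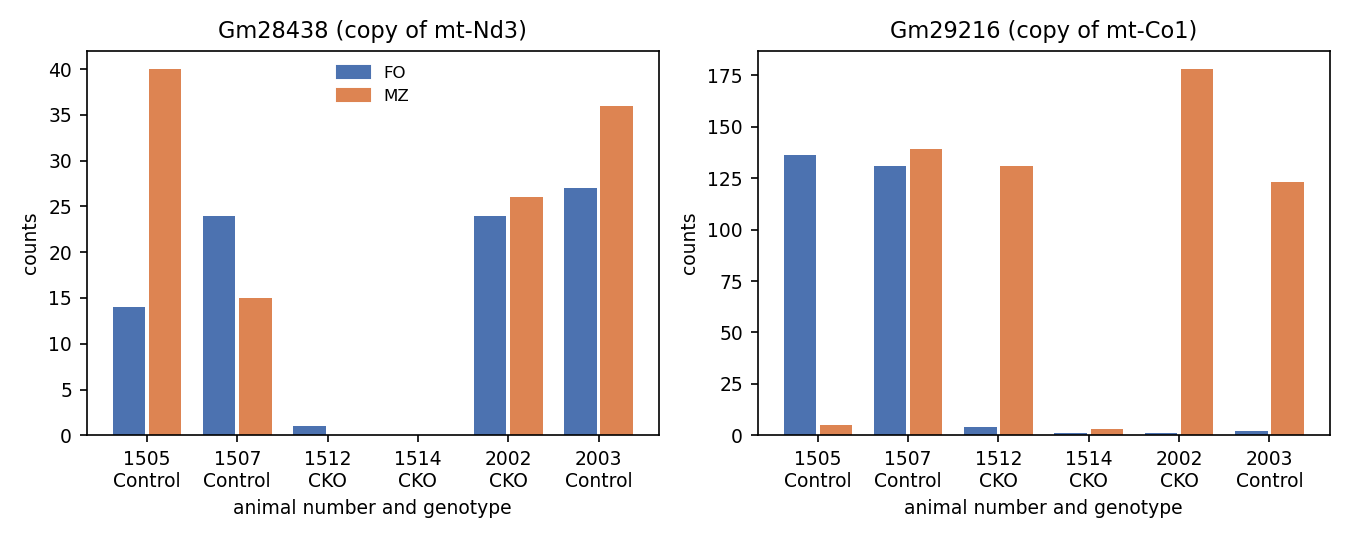
Counts of 2 chromosome 1 copies in each library, by animal number and genotype, with FO in blue and MZ in orange. Gm28438 (left) is near 0 in both libraries of animals 1512 and 1514, while Gm29216 (right) differs between the FO and MZ libraries of 4 animals.

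The tRNA genes are 59 to 75 bases long, and 19 of 22 were at 0. Of the 22, 18 have another gene within 5 bases on both sides, and those 18 held 0 counts. The other 4 were mt-Tf with 0 counts, mt-Tn with 1, mt-Tc with 104 and mt-Tp with 1544 over all libraries. A 32-base gap without a gene separates mt-Tn from mt-Tc, the tRNA for cysteine, and mt-Tp, the tRNA for proline, is the last gene before the control region. Both are transcribed from the minus strand, as are 8 of the 22. Their sequences are shown because they are the tRNAs with more than 1 count.
mt-Tc (chrM:5192-5257, minus strand): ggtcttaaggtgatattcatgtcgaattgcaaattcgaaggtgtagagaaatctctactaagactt
mt-Tp (chrM:15356-15422, minus strand): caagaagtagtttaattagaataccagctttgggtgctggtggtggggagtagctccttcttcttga

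The library kit named in the labels captures RNA by its poly(A) tail, and mature tRNAs carry none, so these counts do not measure the tRNA pool. The rRNA and mRNA counts are likewise of captured RNA only. How fully each rRNA was captured was not tested.

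mt-Atp8 and mt-Atp6, 2 subunits of ATP synthase or complex V, are read from 1 mRNA and overlap by 43 bases (chrM:7927-7969, plus strand). In this stretch, printed from the start codon of mt-Atp6 in capitals, a read lies in both genes.
mt-Atp8/mt-Atp6 overlap: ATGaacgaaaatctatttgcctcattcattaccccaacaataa
mt-Atp8 held 115 to 316 counts per library and mt-Atp6 4 to 23. None of the mt-Atp8 windows of 75 bases was shared with another transcript, against 99.5% for mt-Atp6, although they are read from the same mRNA. mt-Nd4l and mt-Nd4 overlap by 7 bases. mt-Nd5 and mt-Nd6 overlap by 14 bases on opposite strands, and the kit does not mark strand, so reads of mt-Nd6 and of RNA antisense to it cannot be told apart. The same holds for the reads of mt-Tc and mt-Tp.

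In control mice, both rRNAs and mt-Co1 were higher in MZ than in FO B cells, and no mitochondrial transcript was lower. 3 of the 13 members that passed the filter on low counts were called higher and 0 lower, at an adjusted p under 0.05 by edgeR's quasi-likelihood test over all genes. That is 23.1% of the members tested, beside 27.9% of all 17830 genes called in either direction and 14.9% called higher. All 13 estimates were positive, with a median of 0.45 log2 units, against 0.0071 over all genes. The members were measured in the same libraries, so their signs are not separate observations. Within bulk RNA, more mitochondria per cell, more RNA per mitochondrion and a different mix of cells cannot be told apart.

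mt-Rnr2 stood at 5168, 5515 and 5378 CPM in FO Control and at 10779, 7809.9 and 9282 CPM in MZ Control libraries. Every MZ library lay above every FO library, and the fold change was 0.83 ± 0.10 log2 units (SE, adjusted p = 0.000128, edgeR). mt-Rnr1 stood at 353, 406 and 357 CPM in FO Control and at 632, 495 and 528 CPM in MZ Control libraries, again without overlap (0.60 ± 0.09 log2 units, adjusted p = 0.00058). Both rRNAs were called in all 15 fits run, alternatives included, with adjusted p up to 0.00183 for mt-Rnr2 and 0.00557 for mt-Rnr1.

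mt-Co1 stood at 2671, 3007 and 3159 CPM in FO Control and at 4454, 3062 and 4135 CPM in MZ Control libraries. The second MZ library lay inside the FO range. The fold change was 0.44 ± 0.13 log2 units (adjusted p = 0.0424, edgeR), and the call was lost without any 1 of FO Control replicates 1, 2 and 3 or MZ Control replicates 1 and 3 (adjusted p 0.0909 to 0.135). The other complex IV mRNAs, mt-Co2 and mt-Co3, did not pass the filter on low counts in this comparison.

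Complex I has 7 mitochondrial subunits, and none was called. mt-Nd1 stood at 197, 182 and 201 CPM in FO Control and at 326, 149 and 290.4 CPM in MZ Control libraries, where the second MZ library was the lowest of the 6 (0.44 ± 0.32 log2 units, adjusted p = 0.409, edgeR). The differences of mt-Nd2, mt-Nd3, mt-Nd4, mt-Nd5 and mt-Nd6 were 0.30, 0.68, 0.41, 0.45 and 0.46 log2 units, with adjusted p from 0.0913 to 0.52. mt-Nd4l was at 0 throughout. mt-Cytb, the cytochrome b of complex III, stood at 191, 201 and 153 CPM in FO Control and at 329.7, 159.9 and 229.6 CPM in MZ Control libraries (0.44 ± 0.30 log2 units, adjusted p = 0.379). In complex V, the estimates were 0.28 ± 0.45 log2 units for mt-Atp8 and 1.18 ± 0.46 for mt-Atp6, the latter from 4 to 23 counts (adjusted p = 0.709 and 0.0786, edgeR).

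The second MZ Control library, of animal 1507, was the lowest MZ Control library for mt-Nd1, mt-Nd2, mt-Nd4, mt-Nd5, mt-Nd6, mt-Cytb, mt-Atp8, mt-Co1, mt-Rnr1, mt-Rnr2 and mt-Tp. Without it, 10 of the tested members were called higher. Those added were mt-Nd1, mt-Nd2, mt-Atp8, mt-Nd4, mt-Nd5, mt-Nd6 and mt-Tp, with fold changes of 0.55 to 0.80 log2 units (adjusted p up to 0.0401, edgeR). In that fit 14.3% of all genes were called higher. Fits without 1 library called 2 to 10 members, and this library was singled out after its low values were seen. The calls added without it are therefore no separate support for a difference. With the animal as a block, 6 members were called higher: the 3 above and mt-Atp6, mt-Nd6 and mt-Tp (adjusted p = 0.0258, 0.00656 and 0.0015). The block also raised the share of all genes called higher, from 14.9% to 22.4%.

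In CKO mice, mt-Rnr2 and mt-Tc were called higher in MZ than in FO B cells, and no mRNA was called. That was 2 of 16 members tested, or 12.5%, beside 18.3% of 17712 genes called in either direction and 10.5% called higher. The median over the members was 0.056 log2 units, and 9 of the 16 estimates were positive. mt-Rnr2 stood at 6114, 5775 and 5949 CPM in FO CKO and at 6979.6, 7331 and 7964 CPM in MZ CKO libraries, without overlap (0.40 ± 0.10 log2 units, adjusted p = 0.0231, edgeR). The call was lost without any 1 of the 3 FO CKO libraries or without MZ CKO replicate 3 (adjusted p 0.0516 to 0.101). mt-Rnr1 stood at 455, 392 and 438 CPM in FO CKO and at 399.8, 472 and 461 CPM in MZ CKO libraries, which overlap (0.13 ± 0.09 log2 units, adjusted p = 0.373).

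mt-Tc held 2, 4 and 6 counts in FO CKO and 13, 11 and 14 in MZ CKO libraries, and 6, 6 and 9 in FO Control and 10, 10 and 13 in MZ Control libraries. In CPM the groups did not overlap in CKO mice, but FO Control replicate 3 stood at 0.225 CPM and MZ Control replicate 2 at 0.224 CPM. The CKO difference was 1.71 ± 0.50 log2 units (adjusted p = 0.0415, edgeR), and it was not called once any 1 of the 6 libraries was left out (adjusted p 0.0512 to 0.160). In control mice mt-Tc did not pass the filter on low counts. The 12 mRNAs tested in CKO mice ranged from -0.24 log2 units for mt-Co3 to 0.64 for mt-Co2, with adjusted p of at least 0.5845. For the more abundant ones the differences were 0.12 ± 0.14 for mt-Co1, 0.03 ± 0.17 for mt-Nd1 and 0.00 ± 0.14 for mt-Cytb. MZ CKO and MZ Control were compared with different FO groups.

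**Figure D3:**
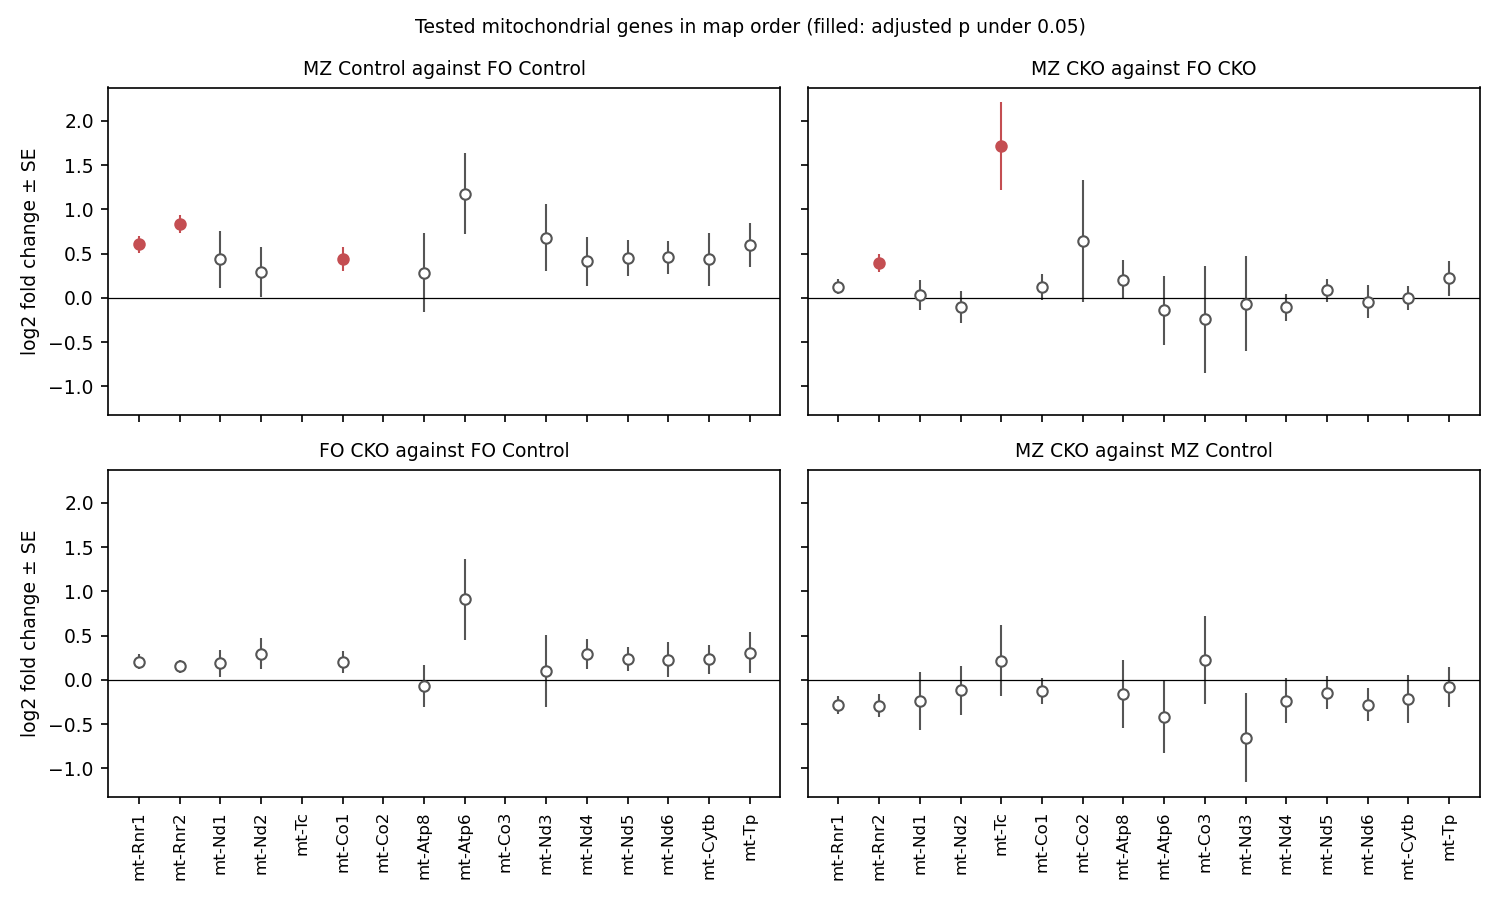
Log2 fold change ± SE of each tested mitochondrial gene in 4 comparisons, in map order, with called genes filled in red. All 13 points lie above 0 for MZ against FO in control mice, mt-Tc and mt-Rnr2 stand out in CKO mice, and no point is filled in the genotype comparisons.

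As shares of all gene counts, the rRNAs took 0.552%, 0.592% and 0.573% in FO Control, 1.14%, 0.831% and 0.981% in MZ Control, 0.657%, 0.617% and 0.639% in FO CKO and 0.738%, 0.780% and 0.843% in MZ CKO libraries. Every MZ library lay above every FO library. The mRNAs took 0.315%, 0.349% and 0.360% in FO Control, 0.526%, 0.345% and 0.477% in MZ Control, 0.394%, 0.328% and 0.452% in FO CKO and 0.388%, 0.361% and 0.452% in MZ CKO libraries. These groups overlapped. The 95% Wilson interval of a library's share lay within 0.557% of its value, so counting error was small beside the spread between libraries.

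Within animals, the rRNA share was higher in MZ than in FO in 6 of 6 animals, by 0.17 to 1.05 log2 units and by 0.54 ± 0.32 on average (SD, n = 6, exact permutation test by sign flips, p = 0.031, the smallest it can give). The mRNA share was higher in 4 of 6 animals, by 0.21 ± 0.31 log2 units on average (SD, n = 6, exact permutation p = 0.219). A total of 60 such tests of shares and ratios were run, all two-sided, and none passed after Benjamini-Hochberg adjustment (adjusted p = 0.312 for the rRNA share and 0.469 for the mRNA share). A test of 3 against 3 libraries cannot give less than 0.1. With these smallest p values, no data could have brought any of the 60 tests under 0.05 after adjustment. The adjusted p therefore cannot decide whether a share or ratio differed. Without mt-Co1, the mRNA share was higher in MZ in 3 of 6 animals (0.14 ± 0.42 log2 units, SD, n = 6, exact permutation p = 0.469).

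Ratios between members were compared as well. mt-Rnr2 held 1.53 to 2.03 counts per mt-Co1 count in FO and 2.02 to 2.55 in MZ libraries, and the ratio was higher in MZ in 6 of 6 animals, by 1.14- to 1.39-fold. The mean difference was 0.33 ± 0.12 log2 units (SD, n = 6, exact permutation p = 0.031, adjusted p = 0.312 over the 60 tests), and without any 1 animal it was 0.30 to 0.36. mt-Rnr2 held 13.4 to 15.1 counts per mt-Rnr1 count in FO and 15.5 to 17.6 in MZ libraries, without overlap. That ratio too was higher in MZ in 6 of 6 animals, by 0.24 ± 0.11 log2 units (SD, n = 6, exact permutation p = 0.031, adjusted p = 0.312). Both ratios were chosen after the counts were seen. They compare RNA captured by the kit, and whether capture differed between these RNAs was not tested.

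**Figure D4:**
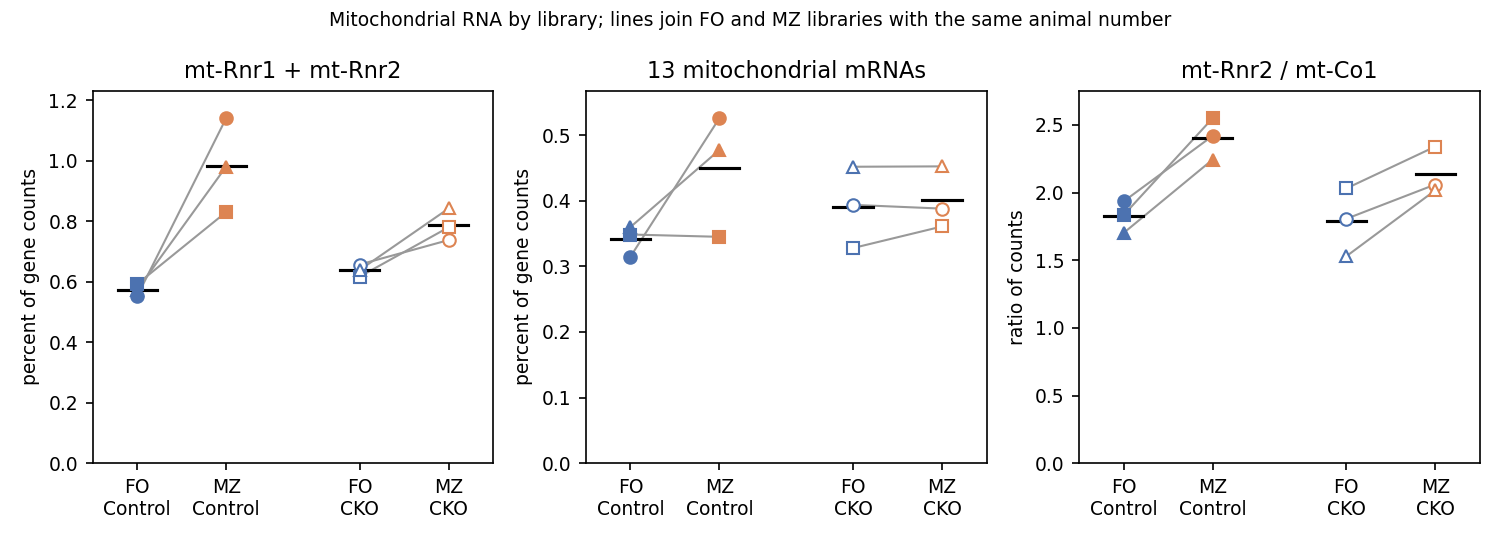
Percent of gene counts in the rRNAs (left) and mRNAs (middle), and counts of mt-Rnr2 per mt-Co1 count (right), in each of the 12 libraries, with FO in blue, MZ in orange, Control filled, CKO open, and circles, squares and triangles for replicates 1, 2 and 3. Black bars are means of 3 libraries and grey lines join libraries with the same animal number. The lines rise in all 6 animals for the rRNAs and for the ratio, but not for the mRNAs.

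The share of each mRNA in the mRNA total was also tested. Of 48 exact permutation tests over 8 mRNAs with 10 or more counts in every library, the smallest p was 0.1, and all adjusted p were 1. mt-Nd1 and mt-Cytb, which lie far apart on the map, had similar counts, and their ratio was lowest in the same animal in both cell types. mt-Cytb held 0.761 counts per mt-Nd1 count in the FO and 0.790 in the MZ library of animal 2003, the lowest of each cell type, and 1.10 and 1.07 in those of animal 1507.

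Other values were compared between the cell types. Reads with no unique alignment were 19.6% to 23.6% of listed reads in FO Control and 24.1% to 27.8% in MZ Control libraries. In CKO mice the groups overlapped, at 21.4% to 27.7% in FO and 23.9% to 28.7% in MZ libraries, and in animal 1512 the FO library was the higher (24.5% against 23.9%). The 7 T cell markers summed to 236 to 269.9 CPM in FO Control and 110 to 186 CPM in MZ Control libraries, and to 159.9 to 237 and 94.9 to 153 CPM in FO CKO and MZ CKO, with 5 of 7 called lower in MZ cells of control and 1 of 7 of CKO mice by edgeR. The 4 NK cell markers summed to 35.8 to 48.1 CPM in FO Control and 19.8 to 32.7 CPM in MZ Control libraries, without overlap, and to 33.6 to 55.6 and 19.6 to 34.2 CPM in FO CKO and MZ CKO, with 0 of 4 called in control and 1 of 4 called lower in CKO mice. The 6 macrophage and monocyte markers overlapped, at 201 to 395 CPM in FO Control and 152 to 279.5 CPM in MZ Control libraries, with 0 of 6 called in control and 1 of 6 called lower in CKO mice. Over all genes, 13.03% were called lower in control and 7.78% in CKO mice. In control mice the block called 5 of 7 T cell, 4 of 4 NK cell and 3 of 6 macrophage and monocyte markers lower. In CKO mice it called 7 of 7, 4 of 4 and 3 of 6 lower. Neutrophil markers called lower with the block were 4 of 7 tested in control and 7 of 8 in CKO mice, against 0 without it. The block called 43.8% and 35.8% of all genes in either direction. No marker of these lists was at 0 in all libraries of a group. Their part in the mitochondrial differences was not tested.

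CKO was compared with control in each cell type, and no mitochondrial transcript was called in either. In FO cells 0 of 13 members were called, beside 0.09% of 17777 genes, and 1 member (mt-Rnr1) had an unadjusted p under 0.05 by edgeR. In MZ cells 0 of 15 members were called, beside 0.0793% of 17658 genes, and 2 members (mt-Rnr1 and mt-Rnr2) had an unadjusted p under 0.05. Over all genes, 717 in FO and 512 in MZ cells had an unadjusted p under 0.05. DESeq2 and limma-voom called 0 members in both cell types. In FO cells 12 of 13 estimates were positive, with a median of 0.23 log2 units. In MZ cells 2 of 15 were positive. Within a cell type these estimates come from the same libraries, so their signs are not separate observations.

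The mt-Rnr1 estimate for CKO against Control was 0.21 ± 0.08 log2 units in FO (adjusted p = 0.9995, edgeR) and -0.28 ± 0.10 in MZ cells (adjusted p = 1). For mt-Rnr2 the estimates were 0.16 ± 0.07 in FO and -0.29 ± 0.13 in MZ cells, and for mt-Co1 0.20 ± 0.12 and -0.12 ± 0.15. The rRNA share of FO CKO libraries (0.617% to 0.657%) lay above that of FO Control libraries (0.552% to 0.592%) without overlap, by 0.155 log2 units (exact permutation p = 0.1, the smallest that 3 against 3 can give, adjusted p = 0.333). With all listed reads as the total, this difference was 0.0922. In MZ cells the rRNA share differed by -0.31 log2 units (exact permutation p = 0.2), and the MZ Control library of animal 1507 lay within the CKO range. Among the smaller classes, mt-Atp6 had the largest FO estimate (0.91 ± 0.45 log2 units, adjusted p = 0.9995, edgeR), from 4, 9 and 10 counts in FO Control and 13, 11 and 19 in FO CKO libraries. mt-Nd3 had the lowest MZ estimate (-0.65 ± 0.50 log2 units, adjusted p = 1), from 18 to 26 counts in MZ Control and 4 to 19 in MZ CKO libraries.

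The 8 neutrophil markers summed to 74.9 to 193 CPM in FO Control and 121 to 406 CPM in FO CKO libraries, and to 45.5 to 137 and 65.7 to 235 CPM in MZ Control and MZ CKO. All 8 estimates for CKO against Control were positive in both cell types. The medians were 0.9853 log2 units in FO and 1.077 in MZ cells. In the main edgeR fits 0 of 8 were called in either cell type. A block of replicate numbers pairs animals of the 2 genotypes that the labels do not tie to a shared batch. With it, 2 of 8 were called higher in FO and 5 of 8 in MZ cells. That block called 25 of 17777 genes in FO and 57 of 17658 in MZ cells. Other marker lists differed as well. The T cell estimates were negative for 7 of 7 markers in FO and 5 of 7 in MZ cells. Those of dendritic cells were negative for 4 of 5 in FO and 5 of 5 in MZ cells. Macrophage and monocyte estimates were positive for 6 of 6 in FO and 3 of 6 in MZ cells. In the main fits 0 of these were called, and the block called 1 dendritic cell marker lower in MZ cells. The part of all these markers in the genotype values was not tested.

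The difference between both genotype effects was tested over all 12 libraries, and 0 of 16 members were called, beside 0% of 18546 genes by edgeR. By edgeR, 3 of the 16 members (mt-Rnr1, mt-Rnr2 and mt-Atp6) had an unadjusted p under 0.05, beside 238 of the 18546 genes. DESeq2 and limma-voom also called 0. The estimates were -0.48 ± 0.14 log2 units for mt-Rnr1 (adjusted p = 1, edgeR) and -0.44 ± 0.15 for mt-Rnr2 (adjusted p = 1). By animal, the MZ over FO difference in rRNA share was 1.05, 0.49 and 0.77 log2 units in the 3 control animals and 0.17, 0.34 and 0.40 in the 3 CKO animals. The animals did not overlap by genotype, and the difference was -0.47 log2 units (exact permutation p = 0.1, the smallest possible, adjusted p = 0.333).

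The nuclear genes that supply the same complexes were counted from a fixed list of 77 subunits, all of which were tested. In control mice 33 of 77 were called higher in MZ than in FO cells and 0 lower by edgeR, with a median of 0.19 log2 units over the list. That is 42.9% of the list called higher, beside 14.9% of all genes. Without FO Control replicate 1 the count was 21, beside 11.9% of all genes, and without MZ Control replicate 3 it was 20, beside 10.7%. In CKO mice 13 of 77 were called higher and 0 lower, with a median of 0.18. That is 16.9% of the list, beside 10.5% of all genes called higher and 18.3% called in either direction. With the animal as a block, the counts were 47 in control mice (61.0% of the list, beside 22.4% of all genes called higher) and 34 in CKO mice (44.2%, beside 19.2%). In CKO mice the count was 2 without FO CKO replicate 1, 6 without FO CKO replicate 2 and 3 without MZ CKO replicate 1, beside 6.05%, 8.07% and 6.84% of all genes called higher.

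By complex, 11 of 36 nuclear subunits of complex I were called higher in control mice (20 with the block) and 4 in CKO mice (11 with the block). Of complex I that is 30.6% and 11.1%, and 55.6% and 30.6% with the block, and every count by complex stands beside 14.9% and 10.5% of all genes called higher, or 22.4% and 19.2% with the block. Ndufc2, an accessory subunit, was higher by 0.48 ± 0.08 log2 units in control mice (adjusted p = 0.00124, edgeR), and Ndufa10 by 0.34 ± 0.06 in control and 0.41 ± 0.07 in CKO mice (adjusted p = 0.00193 and 0.00486). Complex II, which has no mitochondrial gene, had 0 of 4 subunits called in either genotype (1 and 2 with the block). In complex III, 4 of 9 were called in control and 1 in CKO mice (4 with the block), and Uqcrh was higher by 0.45 ± 0.06 log2 units in control mice (adjusted p = 0.000302). In complex IV, 7 of 11 were called in control and 3 in CKO mice (7 with the block). Cox7b was higher by 0.47 ± 0.08 in control mice, and Cox4i1 by 0.38 ± 0.07 in control and 0.34 ± 0.09 in CKO mice. In complex V, 11 of 17 were called in control and 5 in CKO mice (10 with the block), among them Atp5f1, a subunit of the stator stalk, at 0.37 ± 0.06 in control and 0.42 ± 0.09 in CKO mice. Beside these, mt-Co1 differed by 0.44 log2 units in control and 0.12 in CKO mice.

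**Figure D5:**
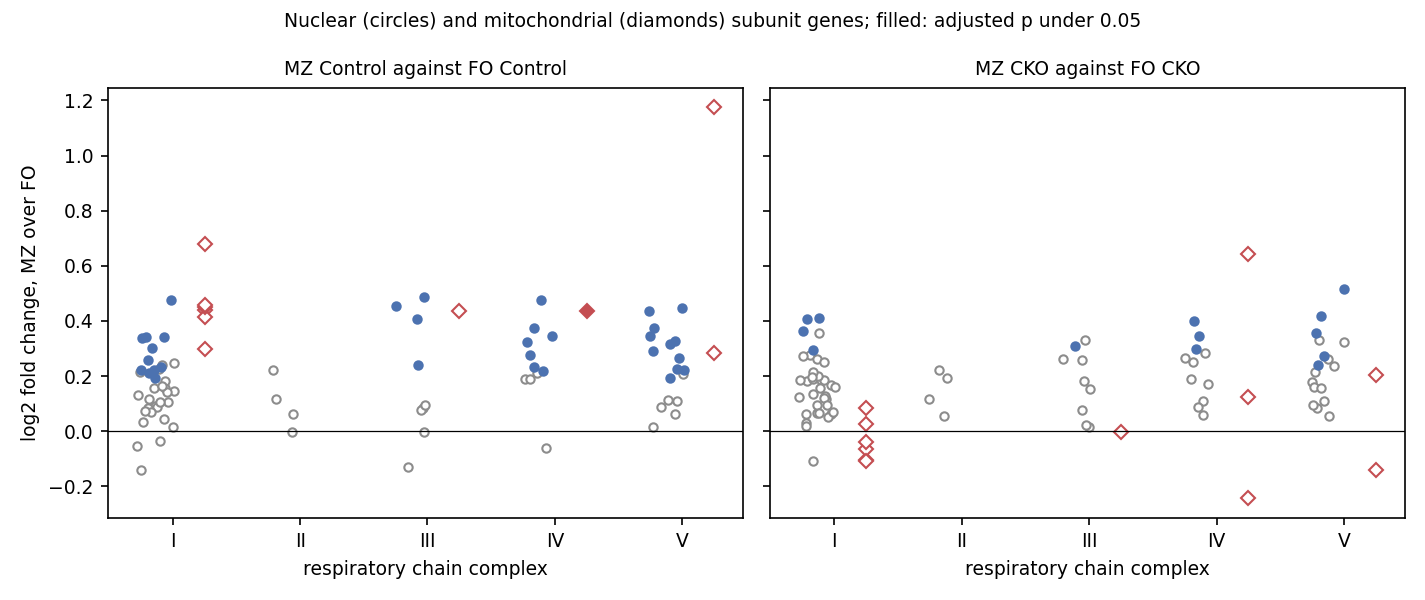
Log2 fold change of MZ over FO for nuclear subunit genes (circles) and mitochondrial subunit genes that were tested (diamonds), by complex, in control mice (left) and CKO mice (right), with called genes filled. The horizontal offset of circles has no meaning. In control mice the filled circles lie between 0.19 and 0.49 and mt-Co1 is the 1 filled diamond, and in CKO mice no diamond is filled.

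Factors that act on the mitochondrial genome and its RNA were also listed. Of 19 genes of transcription and replication, 5 were called higher and 1 lower in MZ than in FO cells of control mice, and 3 higher and 0 lower in CKO mice. The shares called in either direction, 31.6% and 15.8%, stand beside 27.9% and 18.3% of all genes. Called higher were 26.3% and 15.8%, beside 14.9% and 10.5% of all genes. The 1 lower gene, named after its value was seen, was Rrm2b, a ribonucleotide reductase subunit, at -0.22 log2 units (adjusted p = 0.0325, edgeR). With the block, 8 were higher and 4 lower in control and 6 higher and 2 lower in CKO mice, or 63.2% and 42.1% beside 43.8% and 35.8% of all genes. Called higher with the block were 42.1% and 31.6% of the list, beside 22.4% and 19.2% of all genes. Tefm, the transcription elongation factor of mitochondria, was higher by 0.57 ± 0.16 log2 units in control mice (adjusted p = 0.0172, edgeR). Tk2, the thymidine kinase that supplies mitochondrial DNA synthesis, was higher by 0.40 ± 0.08 in control and 0.32 ± 0.08 in CKO mice.

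Of 37 genes of RNA processing and decay, 5 were called higher and 1 lower in control mice, and 5 higher and 0 lower in CKO mice. The shares called in either direction, 16.2% and 13.5%, lie below the 27.9% and 18.3% of all genes. Called higher were 13.5% in each genotype, beside 14.9% and 10.5% of all genes. The 1 lower gene, also named after its value was seen, was Mrm1, an rRNA methyltransferase, at -0.28 log2 units (adjusted p = 0.0366). With the block, 14 were higher and 3 lower in control and 9 higher and 3 lower in CKO mice, or 45.9% and 32.4% beside 43.8% and 35.8% of all genes. Called higher with the block were 37.8% and 24.3% of the list, beside 22.4% and 19.2% of all genes. Elac2, which cuts tRNAs from the precursor at their 3′ ends, was higher by 0.28 ± 0.07 log2 units in control and 0.39 ± 0.06 in CKO mice (adjusted p = 0.00882 and 0.0025, edgeR). 1110008L16Rik, the nuclease subunit that cuts at the 5′ ends and is also called Prorp, was higher by 0.51 ± 0.11 in control mice. Pus1, a pseudouridine synthase, was higher by 0.33 ± 0.09 in control and 0.55 ± 0.11 in CKO mice. Lrpprc, which stabilises mitochondrial mRNAs, was called in CKO mice at 0.25 ± 0.07 (adjusted p = 0.0324).

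Of 77 mitochondrial ribosomal protein genes tested, 9 were called higher and 1 lower in control mice and 7 higher and 0 lower in CKO mice. The shares called in either direction, 12.99% and 9.09%, lie below the 27.9% and 18.3% of all genes. Called higher were 11.7% and 9.09%, beside 14.9% and 10.5% of all genes. With the block, 23 were higher and 2 lower in control and 19 higher and 1 lower in CKO mice, or 32.5% and 26.0% beside 43.8% and 35.8%. Called higher with the block were 29.9% and 24.7% of the list, beside 22.4% and 19.2% of all genes. Mrpl52 had the smallest adjusted p in both, at 0.61 ± 0.10 log2 units each. The 1 lower gene in control mice was Mrpl38 at -0.37 ± 0.08. Among 10 regulators of mitochondrial gene programmes, 1 was called higher and 2 lower in each genotype. That is 30% of the list in each, beside 27.9% and 18.3% of all genes. Myc was higher by 1.13 ± 0.08 in control and 1.15 ± 0.11 in CKO mice. Nrf1, a nuclear activator of respiratory chain genes, was lower in MZ cells (-0.53 ± 0.08 and -0.39 ± 0.07), as was Gabpb1, a subunit of another such activator (-0.49 ± 0.09 and -0.39 ± 0.09). With the block, 2 regulators were higher and 4 lower in control and 2 higher and 2 lower in CKO mice. That is 60% and 40% of the list, beside 43.8% and 35.8% of all genes.

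In the genotype comparisons, 0 genes of any of these nuclear lists were called by edgeR. Of the 77 nuclear subunits, 3 in FO and 1 in MZ cells had an unadjusted p under 0.05. Over all genes the counts were 717 of 17777 in FO and 512 of 17658 in MZ cells.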

How the data were processed

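Raw gene counts deposited by the authors for 12 libraries were used. Per the submitters' processing notes, TopHat, HTSeq and DESeq2 were used on GRCm38/mm10; versions, annotation release, read length and strand setting are not given in the sources used here. Entries naming no gene (43.2% to 50.4% of listed reads per library) were left out of tests. Symbols and coordinates came from GENCODE M21, which named 45229 of 46078 genes, and sequences from its transcripts. A genome sequence was not used, so unannotated copies were not searched.

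Levels are CPM, counts scaled to a common total of gene counts, without TMM factors. Counts were tested with edgeR 4.0.16 in R 4.3.3 (filterByExpr, TMM, robust quasi-likelihood fit, Benjamini-Hochberg adjustment over all genes tested, threshold 0.05), in the libraries of each comparison and, for the difference of genotype effects, in all 12. The script was tested on simulated counts. Errors of fold changes are SE, the absolute estimate divided by the square root of the F statistic. Shares and ratios were tested on the log2 scale by exact permutation of libraries or by sign flips within animals. Alternatives were DESeq2 1.42.0, limma-voom (limma 3.58.1), RLE scaling, scaling without mitochondrial genes, no filter, no robust step, a block, all libraries in 1 fit, other totals for shares, and leaving out libraries.

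FO and MZ libraries were paired by the animal number in the labels, and their deviations from group means correlated at 0.426 to 0.651. Between genotypes, equal replicate numbers, which the labels do not tie to a shared batch, correlated at 0.104 to 0.361 in FO and at -0.0654 to 0.365 in MZ. Genotype comparisons were fitted without a block, and with one as an alternative in both cell types. Replicates are animals as far as the labels tell.

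The members and gene lists were chosen with earlier results of these data known. All 37 members were accounted for, tRNAs were named when tested or among the 3 highest, up to 4 called genes per nuclear list were considered for naming, and copies were named when they held 10 or more counts. Other copies, chosen after their values were seen, were named where they match a member described. The ratios of members and the counts of lists under alternatives were added after the data were seen.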

Additional observations from a re-analysis of the deposited data

How the results depend on the processing

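In control mice, the count of members called for MZ against FO was 3, and it was 5 without the filter on low counts, 6 with the animal as a replicate block and 2 to 10 without 1 library. In CKO mice the count was 2, and it was 1 with DESeq2, which gave mt-Tc no adjusted p, and 0 to 1 without 1 library. The genotype comparisons and their difference stayed at 0 members called under every alternative run. The nuclear respiratory chain count was 33 in control mice and 20 to 27 without 1 library. In CKO mice it was 13, and it was 21 without the filter, 34 with the replicate block, 23 with all libraries in 1 fit and 2 to 15 without 1 library. The rRNA share of FO CKO against FO Control was 0.0922 log2 units with all listed reads as the total. The block of replicate numbers changed no call of a member in either genotype comparison. Over all genes the block called 25 in FO, 57 in MZ and, for the difference of both effects, 4, against 16, 14 and 0. The mRNA share of MZ CKO against FO CKO, 0.04 log2 units, changed sign without mt-Co1 (-0.05), without FO CKO replicate 2 (-0.08) and without MZ CKO replicate 3 (-0.05). No other mRNA or rRNA share, called member or ratio of mt-Rnr2 to mt-Co1 changed sign under the alternatives run. Estimates near 0 that were not called could change sign. The mt-Cytb estimate in CKO mice was -0.003 log2 units in the main fit and 0.01 with the block. Apart from the rRNA share of FO CKO every share kept within 1 SD. Counts of at most 26 per library limit what can be detected for mt-Co2, mt-Co3, mt-Atp6, mt-Nd3 and mt-Tc.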

Other observations

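Gm13340, an unprocessed pseudogene on chromosome 2 (GRCm38 chr2:22588103-22589647, minus strand), matches the whole of mt-Co1 with 37 mismatches and held 29 to 75 counts per library. It stood at 29, 50 and 40 counts in FO Control and 75, 74 and 58 in MZ Control libraries and was called higher in MZ than in FO cells of control mice (0.86 ± 0.25 log2 units, adjusted p = 0.0216, edgeR). In CKO mice its difference was 0.25 ± 0.23 log2 units (adjusted p = 0.528). mt-Co1 differed by 0.44 and 0.12 log2 units in the same comparisons. Which copy the counted reads match was not analysed here.

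Gm28437, the chromosome 1 copy of mt-Co3, held 25 counts in FO CKO replicate 3 and 0 to 3 in the other 11 libraries. mt-Co3 held 24 counts in that library, its highest, and 5 to 15 in the others. Gm28439, which matches mt-Nd4 over 876 bases, was at 0 in all 12 libraries while mt-Nd4 held 812 to 1590.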
